A study of Mus musculus with 6 samples.

Results

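The Cyp2c genes encode a family of cytochrome P450 enzymes, and 10 of them were followed here by name: Cyp2c29, Cyp2c37, Cyp2c38, Cyp2c39, Cyp2c40, Cyp2c44, Cyp2c50, Cyp2c54, Cyp2c55 and Cyp2c70. All 10 were among the 17275 genes of the deposited count table, and all 10 passed the filter on low counts that left 12343 genes for testing. Hepatocytes of mice, sorted by Axin2 promoter activity, gave 6 RNA-seq libraries, and these are called by their labels: 3 labelled positive (Axin2+) and 3 labelled negative (Axin2-). Every animal was a C57BL/6 mouse of genotype Axin2rtTA;TetO-H2B-GFP, in which the Axin2 promoter drives a transactivator that, with doxycycline, switches on a green fluorescent histone, so that green cells are those with an active Axin2 promoter. All mice drank doxycycline for 7 days, and the labels give their age as postnatal day 63 and the protocol as 8 weeks. Non-parenchymal cells had been removed before the sort into fluorescent and non-fluorescent hepatocytes. Each replicate number stands for a sequencing index that 1 library of each group carries, and the libraries of one number are called a pair. Whether each library is of a separate mouse is not said in the labels. Every p-value here thus measures the spread between these libraries, which may be technical in part. That spread includes pair 2, whose libraries differ from the rest in Y-linked and Xist reads, as given below.

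P450 enzymes of this family are heme proteins anchored in the endoplasmic reticulum that insert oxygen into drugs, steroids and fatty acids, with electrons passed on by P450 oxidoreductase and cytochrome b5. Several mouse members turn arachidonic and linoleic acid into epoxides or hydroxy acids, and 1 member, Cyp2c70, acts on bile acids. In the liver many drug-metabolising P450 genes are most active around the central vein, where Wnt signalling is high and where Axin2, a Wnt target, is expressed. Levels of many of these genes in mouse liver are also known to differ between the sexes.

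In 2 of the 3 pairs the Cyp2c genes were divided into those far higher in the library labelled positive and those at about the same level in both. Cyp2c37, Cyp2c38, Cyp2c39, Cyp2c50, Cyp2c54 and Cyp2c55 were at least 2-fold higher in the library labelled positive in both pair 2 and pair 3. Cyp2c44 and Cyp2c70 differed by less than 1.5-fold in every pair. Cyp2c29 and Cyp2c40 differed by more than 2-fold in pair 2 only. In pair 1 no member differed by more than 0.21 on the log2 scale, in either direction. Over all 6 libraries no member passed the test.

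The library labelled positive 1 went against its label. Axin2 stood at 2.40, 22.6 and 24.2 CPM (reads of the gene per 1e6 reads, scaled to the composition of each library) in the libraries labelled positive 1, 2 and 3 and at 3.04, 3.75 and 5.75 CPM in those labelled negative. The first of these values lay below all 3 Axin2-negative ones, so each direction that includes that library carries this limit. The libraries held 75882611 to 103386648 reads assigned to genes. Summed hepatocyte markers (Alb, Ttr, Apoa1 and others) stood at 87831 to 184032 CPM in the libraries labelled positive and 81193 to 182384 CPM in the others, so all 6 carried the labelled cell type's transcripts. Between the libraries of a pair, the log2 difference over all genes tested had an SD of 0.22 in pair 1, 0.78 in pair 2 and 0.62 in pair 3. The chi-square of the read numbers was 4.77 per gene in pair 1, 459 in pair 2 and 389 in pair 3. Whether the libraries of pair 1 share a source was not tested. Both libraries of pair 2 held reads of Ddx3y, a Y-linked gene (7164 and 6759 reads, against 0 to 3 in the others), and almost none of Xist, the RNA of the inactive X (0.0507 and 0.0622 CPM, against 368 to 606).

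**Figure D1:**
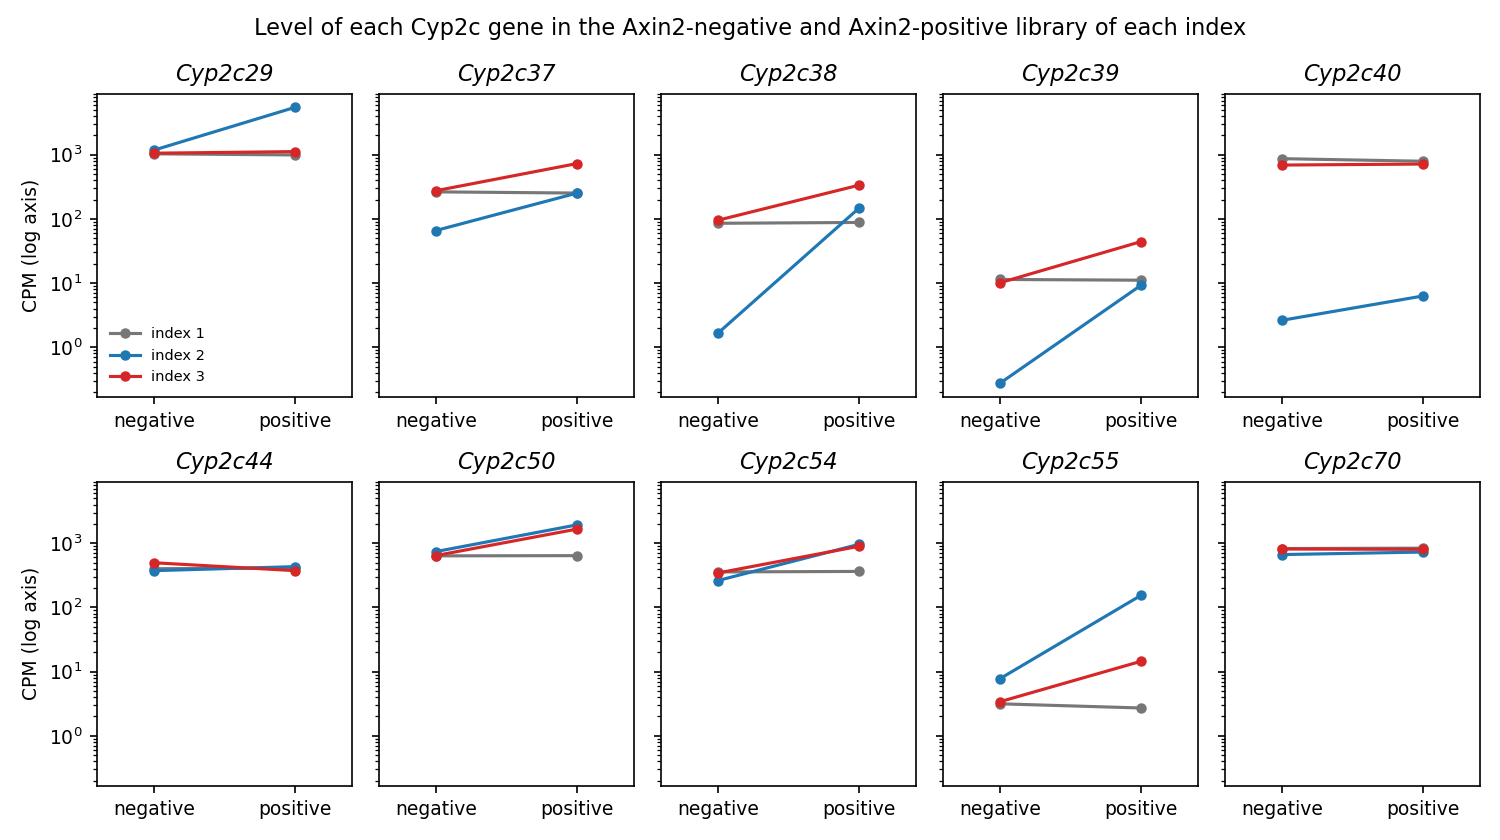
Level of each of the 10 Cyp2c genes (CPM, log axis) in the library labelled negative and the library labelled positive of each index, 1 point per library and 1 line per pair. The lines of index 1 are nearly flat in all panels, Cyp2c40 of index 2 lies at 2.63 and 6.31 CPM while its other libraries lie between 691 and 869 CPM, and Cyp2c50 and Cyp2c54 climb alike in indices 2 and 3.

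Of the 10 genes, 9 lie within 1.18 Mb of chromosome 19 (39007019 to 40187333, GRCm38), in the order Cyp2c55, Cyp2c29, Cyp2c38, Cyp2c39, Cyp2c40, Cyp2c37, Cyp2c54, Cyp2c50 and Cyp2c70. Cyp2c44, which the annotation calls Cyp2c23, lies 3.82 Mb beyond them, at 44005022 to 44029208. The proteins translated from the annotated transcripts held 489 to 520 residues, and each carried the heme-binding cysteine motif of P450 enzymes once. Copies within the cluster are close to one another. Cyp2c37 and Cyp2c50 shared 94.5% of their residues, Cyp2c50 and Cyp2c54 shared 92.4%, and Cyp2c38 and Cyp2c39 shared 92.0%. No stretch of 50 bases of the Cyp2c44 or Cyp2c70 transcript occurred in another gene's transcripts. Stretches that did occur elsewhere made up 72.1% of the Cyp2c40 transcript, 30.7% of Cyp2c50, 30.1% of Cyp2c37 and 25.7% of Cyp2c54. They made up 12% of Cyp2c39, 7.4% of Cyp2c38, 2.1% of Cyp2c29 and 1.1% of Cyp2c55. The way in which reads that fit several copies were counted is not given in the sources used here. The split of reads among Cyp2c37, Cyp2c50 and Cyp2c54, between Cyp2c38 and Cyp2c39, and among Cyp2c40 and its relatives Cyp2c67, Cyp2c68 and Cyp2c69 is uncertain.

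Levels were compared between genes after division by the length of all annotated exons of a gene, and again by the length of the transcript that was translated, a choice added after the data were seen. With the exon length, the mean over the 6 libraries was 592 reads per kilobase and per 1e6 reads (RPKM) for Cyp2c29, 393 for Cyp2c70, 358 for Cyp2c50, 298 for Cyp2c54, 252 for Cyp2c40, 192 for Cyp2c44 and 168 for Cyp2c37. Cyp2c38, Cyp2c55 and Cyp2c39 followed at 43.8, 15.6 and 7.95 RPKM. With the transcript length, Cyp2c29 stood at 1016 RPKM, Cyp2c50 at 576 and Cyp2c70 at 454, so the order of Cyp2c50 and Cyp2c70 turned, while Cyp2c29 had the highest mean by either length. Without the library labelled positive 2, Cyp2c29, Cyp2c50 and Cyp2c70 had means of 352, 296 and 399 RPKM by exon length and of 604, 477 and 460 RPKM by transcript length, so the place of Cyp2c29 depended on the length once that library was left out. Cyp2c40 ranged from 1.29 to 427 RPKM by exon length, wide enough to overlap every other member.

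Cyp2c37, Cyp2c50 and Cyp2c54, enzymes that oxidise arachidonic and linoleic acid, form the most alike trio of the family. Cyp2c50 (chromosome 19, 40089688 to 40113950, plus strand) stood at 641, 1936 and 1665 CPM in the libraries labelled positive 1, 2 and 3 and at 636, 741 and 642 CPM in those labelled negative. The libraries labelled positive 2 and 3 were high and the other 4 lay close together; the groups overlapped only through the library labelled positive 1. The group means were 1414 ± 683 and 673 ± 59.3 CPM (SD, n = 3 each). Across the 6 libraries this was a log2 fold change of 1.07 (SE 0.41), which did not pass (edgeR, Benjamini-Hochberg adjusted p = 0.999). Within pairs 2 and 3 the library labelled positive held 2.61 and 2.59 times the level of its partner.

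Cyp2c54 (chromosome 19, 40037940 to 40073827, minus strand) stood at 364, 963 and 898 CPM in the libraries labelled positive and at 357, 262 and 344 CPM in those labelled negative. It was the only member whose 3 Axin2-positive values all lay above the 3 Axin2-negative ones, by a margin of 364 to 357 CPM at the nearest point. The same was true of 3.44% of all genes tested, and no member had all 3 values below. The group means were 742 ± 329 and 321 ± 51.5 CPM (SD, n = 3 each), and the log2 fold change was 1.21 (SE 0.39; edgeR, Benjamini-Hochberg adjusted p = 0.999). The within-pair folds were 1.02, 3.68 and 2.61.

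Cyp2c37 (chromosome 19, 39992424 to 40012243, plus strand) stood at 253, 253 and 730 CPM in the libraries labelled positive and at 264, 65.9 and 275 CPM in those labelled negative. Here the groups overlapped: the high library was positive 3, the low one negative 2, and the remaining 4 lay between 253 and 275 CPM. The log2 fold change over 6 libraries was 1.03 (SE 0.67; edgeR, Benjamini-Hochberg adjusted p = 0.999), and 0.33 without the library labelled positive 3. The within-pair folds were 0.957, 3.84 and 2.65. With the reads of Cyp2c37, Cyp2c50 and Cyp2c54 added together, which leaves their split aside, the log2 fold change was 1.10 and also did not pass.

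Promoters are shown for Cyp2c37 and Cyp2c50, which differed in the same direction in pairs 2 and 3 and whose promoter sequences were 86.0% identical. Each promoter identity given here was taken over the 250 bases before the start. Both windows are the 150 bases before the RefSeq start (GRCm38.p6), 5′ to 3′ on the plus strand of chromosome 19. Cyp2c37 is at chr19:39992274-39992423 and Cyp2c50 at chr19:40089529-40089678. Capitals were kept for TATAAA and for CAAAGTCCA, the letters of a site for the liver factor HNF4, and neither window held them.
Cyp2c37: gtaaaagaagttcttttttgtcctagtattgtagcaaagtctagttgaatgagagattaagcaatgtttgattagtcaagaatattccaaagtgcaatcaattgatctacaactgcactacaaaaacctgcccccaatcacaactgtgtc
Cyp2c50: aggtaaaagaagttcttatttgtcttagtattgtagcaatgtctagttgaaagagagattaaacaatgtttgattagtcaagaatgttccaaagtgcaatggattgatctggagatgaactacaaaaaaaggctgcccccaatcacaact

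Cyp2c38, an arachidonic acid epoxygenase, and Cyp2c39, which can hydroxylate retinoic acid, are neighbours transcribed from opposite strands. Cyp2c38 (chromosome 19, 39389556 to 39463075, minus strand) stood at 88.1, 148 and 336 CPM in the libraries labelled positive and at 85.5, 1.65 and 95.3 CPM in those labelled negative. The library labelled negative 2 was far below all the others, and the groups overlapped through the library labelled positive 1. The within-pair folds were 1.03, 89.3 and 3.53. Over 6 libraries this gave a log2 fold change of 1.65 (SE 1.26; edgeR, Benjamini-Hochberg adjusted p = 0.999), and without the library labelled negative 2 it was 1.08.

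Cyp2c39 (chromosome 19, 39510862 to 39568529, plus strand) stood at 11.1, 9.3 and 44.4 CPM in the libraries labelled positive and at 11.4, 0.274 and 10.1 CPM in those labelled negative. Only the library labelled positive 3 exceeded the Axin2-negative range, and the library labelled negative 2 again stood far below. Its value there rested on 22 reads, against 734 in its partner. The within-pair folds were 0.972, 34 and 4.38. Its log2 fold change was 1.57 (SE 1.23; edgeR, Benjamini-Hochberg adjusted p = 0.999), and without the library labelled positive 3 it was 0.49. For the summed reads of Cyp2c38 and Cyp2c39 it was 1.64, which did not pass.

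The windows of Cyp2c38 (chr19:39463076-39463225, minus strand) and Cyp2c39 (chr19:39510672-39510821, plus strand) are shown because these genes had the lowest level in the same library. Their promoters were 79.2% identical. That lowest library, labelled negative 2, was also the lowest for Cyp2c37, Cyp2c40, Cyp2c54 and Cyp2c70. For Cyp2c39, which has 2 RefSeq entries, the one nearest its annotated start is shown. TATAAA is in capitals, and the copy of Cyp2c39 begins 3 bases before its start and so runs past the end of its window.
Cyp2c38: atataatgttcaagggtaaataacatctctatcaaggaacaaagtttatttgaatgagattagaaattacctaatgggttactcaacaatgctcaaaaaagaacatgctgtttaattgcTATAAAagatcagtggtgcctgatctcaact
Cyp2c39: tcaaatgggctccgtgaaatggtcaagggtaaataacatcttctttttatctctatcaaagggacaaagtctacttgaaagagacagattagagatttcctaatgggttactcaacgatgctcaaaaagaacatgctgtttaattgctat

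Cyp2c55, a hydroxylase of arachidonic acid that is also expressed in the colon, was scarce in most libraries and by far the highest in the library labelled positive 2. Cyp2c55 (chromosome 19, 39007019 to 39042693, plus strand) stood at 2.71, 155 and 14.5 CPM in the libraries labelled positive and at 3.15, 7.73 and 3.39 CPM in those labelled negative. The library labelled positive 2 stood 10 times or more above every other library, and the library labelled positive 1 lay below all 3 Axin2-negative ones. The group means were 57.5 ± 84.8 and 4.75 ± 2.58 CPM (SD, n = 3 each). In the 6-library fit its log2 fold change was 3.60 (SE 1.45; edgeR, Benjamini-Hochberg adjusted p = 0.999), and without the library labelled positive 2 it was 0.86. Its within-pair folds were 0.86, 20.1 and 4.29.

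Cyp2c29, an abundant epoxygenase that is induced by phenobarbital through the nuclear receptor CAR, was high in 1 library. Its levels (chromosome 19, 39269405 to 39330713, plus strand) were 993, 5486 and 1119 CPM in the libraries labelled positive and 1034, 1178 and 1057 CPM in those labelled negative. All 5 libraries other than positive 2 lay between 993 and 1178 CPM, and the groups overlapped. The log2 fold change was 1.22 (SE 0.69; edgeR, Benjamini-Hochberg adjusted p = 0.999), and it turned to -0.05 without the library labelled positive 2. Pair 3, in which Cyp2c50 and Cyp2c54 were over 2-fold higher, gave 1.06-fold for Cyp2c29. The annotated gene overlaps the pseudogene Cyp2c53-ps (39229254 to 39274985) on the same strand. Cyp2c53-ps had 74 and 22 reads in the libraries of pair 2 and 0 or 1 elsewhere.

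The Cyp2c29 window (chr19:39286935-39287084, plus strand) is shown because this promoter was 76.4% identical to that of Cyp2c39 and 74.8% identical to that of Cyp2c38, whose levels followed another order over the libraries. The RefSeq start used for it differs from the annotated start of the gene, 39269405, so this window lies inside the annotated gene. TATAAA is in capitals.
Cyp2c29: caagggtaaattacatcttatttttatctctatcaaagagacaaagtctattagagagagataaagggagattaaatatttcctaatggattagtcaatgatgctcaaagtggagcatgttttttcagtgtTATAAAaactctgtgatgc

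Cyp2c40, another arachidonic acid hydroxylase, was separated by pair and not by group. Its levels (chromosome 19, 39767071 to 39812814, minus strand) were 792, 6.31 and 716 CPM in the libraries labelled positive and 869, 2.63 and 691 CPM in those labelled negative. Both libraries of pair 2 were low, with 498 and 211 reads, and the groups overlapped fully. Within the Axin2-negative group the library of pair 2 was 297-fold below the mean of the other 2 libraries, and within the Axin2-positive group 120-fold below. Between groups the log2 fold change was -0.05 (SE 1.93; edgeR, Benjamini-Hochberg adjusted p = 0.999). With the pair as a block it was 0.37 (SE 0.29; edgeR adjusted p = 0.557), so the sign turned and the error shrank, and neither fit called the gene. Within pair 2 the library labelled positive held 2.4 times the level of its partner, and in pairs 1 and 3 the folds were 0.911 and 1.04.

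Cyp2c44, an epoxygenase, and Cyp2c70, which converts chenodeoxycholic acid to muricholic acids, were the steadiest members. Cyp2c44 stood at 410, 432 and 374 CPM in the libraries labelled positive and at 401, 374 and 497 CPM in those labelled negative. The groups overlapped, and the log2 fold change was -0.07 (SE 0.16; edgeR, Benjamini-Hochberg adjusted p = 0.999). Cyp2c70 (chromosome 19, 40153353 to 40187333, minus strand) stood at 838, 729 and 804 CPM in the libraries labelled positive and at 827, 666 and 813 CPM in those labelled negative. Its groups overlapped too, with a log2 fold change of 0.04 (SE 0.15; edgeR, Benjamini-Hochberg adjusted p = 0.999). The low library in each group was that of pair 2.

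Cyp2c40 and Cyp2c70 were the members whose promoters held CAAAGTCCA, in capitals in the windows of Cyp2c40 (chr19:39812815-39812964, minus strand) and Cyp2c70 (chr19:40187287-40187436, minus strand). In the second window TTTATA, which is TATAAA on the other strand, is in capitals as well.
Cyp2c40: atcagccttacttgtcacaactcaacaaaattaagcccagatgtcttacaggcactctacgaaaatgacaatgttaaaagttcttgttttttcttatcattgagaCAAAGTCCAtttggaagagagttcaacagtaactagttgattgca
Cyp2c70: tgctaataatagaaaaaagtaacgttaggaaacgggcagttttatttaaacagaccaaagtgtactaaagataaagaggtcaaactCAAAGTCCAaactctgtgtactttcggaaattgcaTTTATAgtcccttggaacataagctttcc
RefSeq promoters, of 250 bases before to 50 after the start, were matched for 8 of the 10 members, without Cyp2c44 and Cyp2c54. Each set of letters was searched on both strands. CAAAGTCCA was in 0.47% of all 32851 promoters of the table. CTTTGAA or CTTTGAT, the letters of a site for the Wnt effectors TCF and LEF, began 119 bases before the start of Cyp2c29 and 96 before that of Cyp2c39, and were in 8.65% of all promoters. TGTTTAC, the letters of a FOXA site, was in the promoters of Cyp2c38 and Cyp2c39 and in 3.65% of all. AGTTCA, the repeat unit of sites for the nuclear receptors CAR and PXR, was in those of Cyp2c39, Cyp2c40 and Cyp2c50 and in 13.99% of all. GTTAAT, the repeat unit of HNF1 sites, was in that of Cyp2c40 and in 7.1% of all. TATAAA was in those of Cyp2c29, Cyp2c38, Cyp2c39, Cyp2c40, Cyp2c55 and Cyp2c70 and in 13.62% of all. The TATAAA of Cyp2c40 lay 40 bases past the start, outside the window shown. None of these matches shows that a factor binds there.

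**Figure D2:**
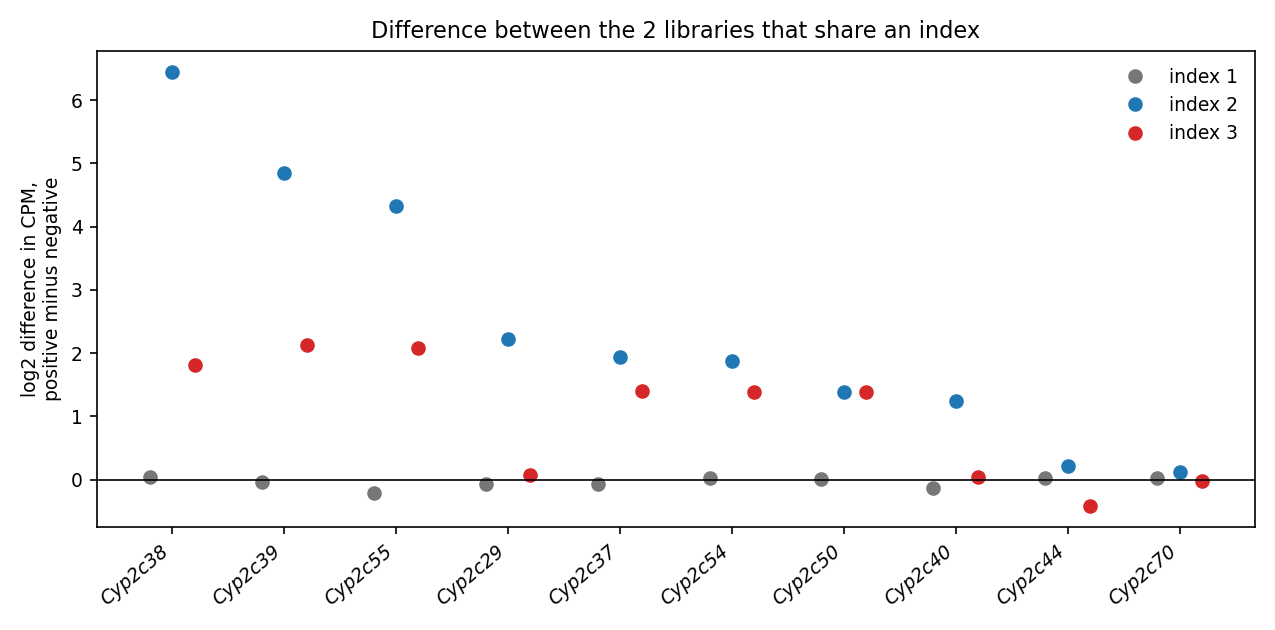
Difference in level between the libraries that share an index (log2 of CPM plus 0.05, positive minus negative) for each of the 10 Cyp2c genes, 1 point per pair. The points of index 1 lie between -0.21 and 0.04, those of index 2 between 0.13 and 6.44, and those of index 3 between -0.41 and 2.13.

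Counted over the members, the tests gave the following. With all 6 libraries edgeR called 0 of 10 members and 0 of 12343 genes, a background of 0% (Benjamini-Hochberg adjusted p under 0.05). Without adjustment, at p under 0.05, edgeR gave 3 members (Cyp2c50, Cyp2c54 and Cyp2c55) and 279 of 12343 genes. At the same threshold DESeq2 gave the same number of members and 432 genes, and limma-voom 1 member (Cyp2c54) and 238 genes. Each of these gene counts is below a share of 0.05 of the genes tested, which such a threshold passes when nothing differs. The median log2 fold change was 1.14 over the members and 0.00 over all genes tested. With the pair as a block in the fit of 6 libraries, again no member passed.

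Because the differences in pair 1 had the smallest spread and its Axin2 values went against a label, the genes were also fitted in pairs 2 and 3 alone, with the pair as a block. That fit has 1 residual degree of freedom, and pair 1 was left out with earlier results of these data known, so its p-values are to be read with caution. It called 5 of 10 members higher in the libraries labelled positive and none lower, against 3.43% of all genes called higher (edgeR, Benjamini-Hochberg). Cyp2c50 rose by 1.38 on the log2 scale (SE 0.10, adjusted p = 0.00559), Cyp2c54 by 1.63 (SE 0.15, adjusted p = 0.00859) and Cyp2c37 by 1.68 (SE 0.16, adjusted p = 0.00888; edgeR in each case). Cyp2c55 rose by 3.29 (SE 0.54, edgeR adjusted p = 0.0333) and Cyp2c39 by 3.03 (SE 0.57, edgeR adjusted p = 0.0434). Cyp2c38 had a larger value, 3.96, with an SE of 1.22, and did not pass (edgeR adjusted p = 0.116), since its pairs differed by 6.44 and 1.82. Cyp2c29 at 1.15 (SE 0.50, adjusted p = 0.219) and Cyp2c40 at 0.62 (SE 0.29, adjusted p = 0.24) did not pass edgeR's test either. Nor did Cyp2c44 at -0.10 (SE 0.17, adjusted p = 0.751) or Cyp2c70 at 0.06 (SE 0.11, adjusted p = 0.767).

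Against a fold of 1.5 in place of no change, the same fit called Cyp2c37, Cyp2c50 and Cyp2c54, with edgeR adjusted p of 0.0225, 0.0131 and 0.0215, where 0.791% of all genes were called higher. By size alone, 6 members were at least 2-fold higher in both pairs, against 1.33% of all genes tested, and none was 2-fold lower in both. The median over the members in the fit of pairs 2 and 3 was 1.51 on the log2 scale, and 0.00 over all genes. Several of these members share sequence and may share reads, so their count is not a count of independent events.

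The reads of all 10 genes together made up 0.413%, 1.02% and 0.692% of the reads in the libraries labelled positive and 0.422%, 0.349% and 0.452% in those labelled negative. Summed levels were 4393, 10117 and 6701 CPM against 4488, 3300 and 4428 CPM, that is 0.979, 3.07 and 1.51 times the partner library in pairs 1, 2 and 3. The libraries labelled positive 2 and 3 were high. In the library labelled positive 2, 54.2% of the members' reads were from Cyp2c29, against 16.7% in the library labelled positive 3. There Cyp2c50 led with 24.8%, and Cyp2c37 gave 10.9%. Lower levels in a library of sorted cells can come from fewer cells that express a gene or from less RNA per cell, which bulk counts cannot tell apart.

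**Figure D3:**
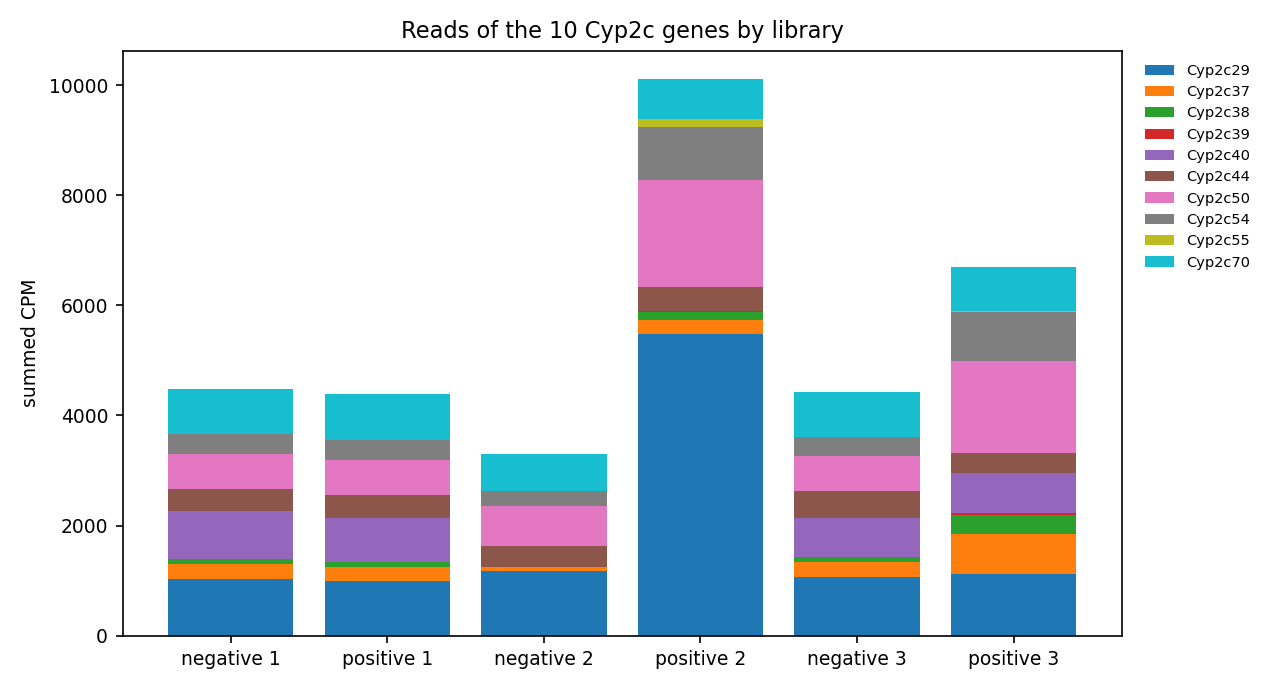
Summed level of the 10 Cyp2c genes in each library (CPM, linear axis from 0), stacked by gene. The sums lie between 3300 and 4488 CPM in 4 libraries and reach 6701 and 10117 CPM in the libraries labelled positive 3 and 2, the latter with 5486 CPM of Cyp2c29.

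Pair 2 differed from the others in the family's make-up within both groups, and its libraries were those with Ddx3y reads and without Xist. Beside Cyp2c40, Cyp2c38, Cyp2c39 and Cyp2c37 were lower there than the mean of the other libraries of the group. Relative to the mean of the other Axin2-negative libraries they were 54.6-fold, 39.4-fold and 4.09-fold lower in the library labelled negative 2. In the Axin2-positive group the same ratios were 1.44-fold, 2.99-fold and 1.94-fold lower. These 3 ratios rest on the library labelled positive 3, at 336, 44.4 and 730 CPM. The library labelled positive 2 stood at 148, 9.3 and 253 CPM and positive 1 at 88.1, 11.1 and 253 CPM. Against positive 1, Cyp2c38 was thus higher in positive 2. Cyp2c55 was 2.37-fold higher in the Axin2-negative library of pair 2 and 18-fold higher in the Axin2-positive one. Cyp2c29 was 5.2-fold higher in the Axin2-positive library of pair 2 and within 1.13-fold in the Axin2-negative one. Cyp2c44 and Cyp2c70 stood at 0.813 to 1.1 times the other libraries in both groups. With 1 such pair there is no test, and the part of the animals' sex in these values was not tested.

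**Figure D4:**
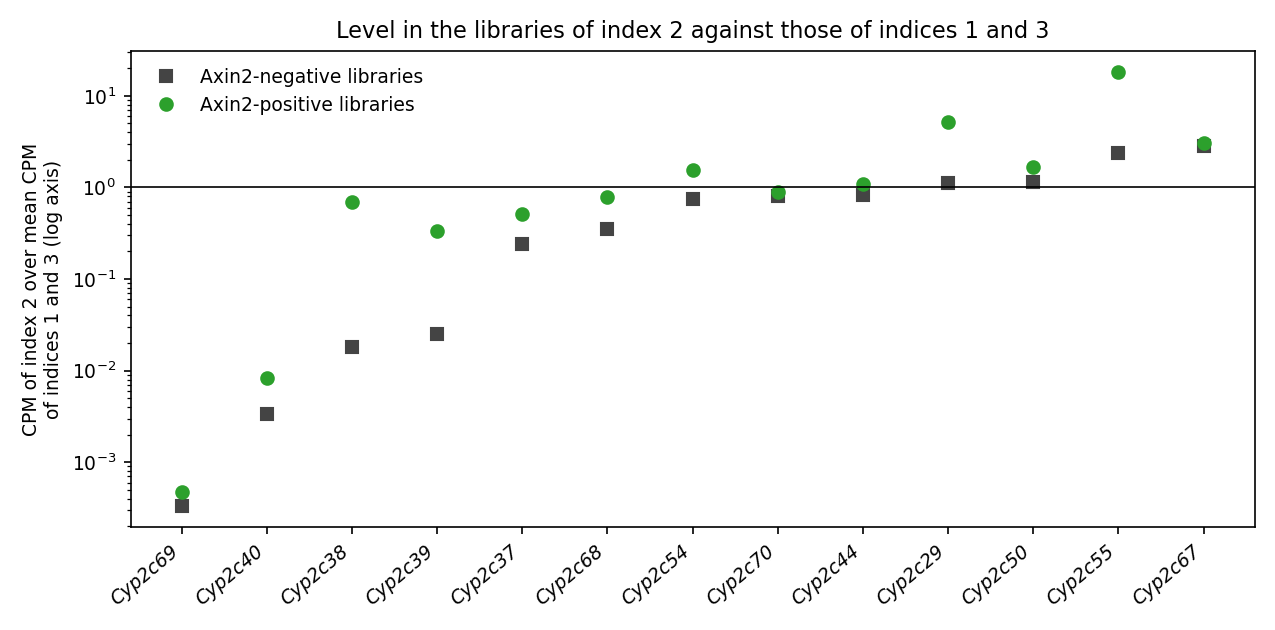
Level in the libraries of index 2 divided by the mean level of indices 1 and 3 in the same group (ratio of CPM, log axis) for the 10 members and 3 further Cyp2c genes, with squares for the libraries labelled negative and circles for those labelled positive. Cyp2c69 and Cyp2c40 lie lowest in both groups, at ratios of 0.000336 and 0.00336 in the Axin2-negative one, and Cyp2c55 lies highest, at 18, in the Axin2-positive one.

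The count table held 5 further Cyp2c genes, of which 3 passed the filter in the fit of 6 libraries. Cyp2c69, whose protein shared 95.2% of its residues with Cyp2c40, stood at 1179, 0.849 and 2376 CPM in the libraries labelled positive and at 1247, 0.423 and 1271 CPM in those labelled negative. It shared with Cyp2c40 the near absence from pair 2, where it had 67 and 34 reads, but in pair 3 it was higher in the library labelled positive while Cyp2c40 was at 1.04-fold. In the fit of pairs 2 and 3 Cyp2c69 rose by 0.94 on the log2 scale (SE 0.12; edgeR adjusted p = 0.0169). For the genes that follow, the levels in the libraries labelled positive 1, 2 and 3 are given first, against those in negative 1, 2 and 3. Cyp2c67 stood at 148, 1293 and 688 CPM against 135, 420 and 162 CPM, and rose by 1.86 on the log2 scale in pairs 2 and 3 (SE 0.15; edgeR adjusted p = 0.00675). Cyp2c68, 95.1% identical to Cyp2c67 in protein, stood at 421, 413 and 629 CPM against 447, 159 and 443 CPM and did not pass (edgeR adjusted p = 0.067 in pairs 2 and 3). Stretches of 50 bases found in other genes' transcripts made up 52.8% of the Cyp2c67 transcript, 43.3% of Cyp2c68 and 54.8% of Cyp2c69. The split of reads among these genes is thus uncertain. Cyp2c65 had 0 or 1 read per library. The letters CAAAGTCCA were also in the promoters of Cyp2c65, Cyp2c67, Cyp2c68 and Cyp2c69.

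Over the 6 libraries, patterns of level were most alike among Cyp2c37, Cyp2c38 and Cyp2c39 (Pearson r of log2 CPM 0.95 to 0.98). High r also joined Cyp2c50 and Cyp2c54 (0.95), Cyp2c29 and Cyp2c55 (0.94), and Cyp2c40 and Cyp2c70 (0.97). These are descriptions over 6 points that share pairs, groups and, for the closest copies, possibly reads. Pearson r takes no account of the size of a change. Cyp2c40 ranged from 2.63 to 869 CPM and Cyp2c70 from 666 to 838 CPM, both lowest in pair 2. Outside the members, the genes most like Cyp2c29 were Pon2 (r = 0.999), Sec62 (0.993) and Nudt19 (0.991). These values rest on the library labelled positive 2, where Nudt19 stood at 46.6 CPM, against 39.9 to 40.9 CPM elsewhere. Among those most like Cyp2c50 were Prdx1, a peroxide-reducing enzyme (0.995), and Rcbtb1 (0.994). For Cyp2c70 they were Pdk1 (0.995), Lrp2bp (0.995) and Ugt1a5 (0.993). The genes most like Cyp2c40, named after their values were seen, were Cyp2b9 (0.999), Slc22a26 (0.999) and Cyp2a4 (0.997). Cyp2b9 stood at 624, 0.709 and 524 CPM against 630, 0.199 and 696 CPM, low in both libraries of pair 2 as Cyp2c40 was.

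Of the electron donors and other partners of P450 enzymes, 4 were tested. In pairs 2 and 3, where edgeR called 3.43% of all genes higher and 4.01% lower, it called 1 of these 4 higher and none lower. That one was Cyb5b, the cytochrome b5 of the outer mitochondrial membrane. It stood at 503, 1182 and 960 CPM against 507, 595 and 558 CPM and rose by 0.89 (SE 0.11; edgeR adjusted p = 0.0172). Pgrmc1, a heme-binding partner of P450 enzymes, stood at 1183, 1822 and 1235 CPM against 1165, 1244 and 1076 CPM (log2 fold change 0.38, edgeR adjusted p = 0.128). Cyb5r3, a cytochrome b5 reductase, had a value of 0.07 (edgeR adjusted p = 0.73). The median of the list in that fit was 0.29.

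The enzymes beside the Cyp2c family in fatty acid epoxide metabolism had 7 tested genes, of which edgeR called none in pairs 2 and 3, with a median of 0.05. Cyp2j5, an epoxygenase of another P450 family, stood at 864, 726 and 804 CPM against 853, 773 and 763 CPM (log2 fold change -0.01, edgeR adjusted p = 0.981). The epoxide hydrolases Ephx2 and Ephx1 had values of 0.15 and 0.05 (edgeR adjusted p = 0.474 and 0.805). Both hydrolases were higher in the libraries of pair 2 than in the others, in both groups: Ephx1 stood at 227, 582 and 179 CPM against 232, 517 and 188 CPM.

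Among 21 transcription regulators that are known to act on Cyp2c or other P450 genes, edgeR called 1 higher and 3 lower in pairs 2 and 3, with a median of -0.22. Of all genes, that fit called 3.43% higher and 4.01% lower. The most abundant were Hnf4a, Rxra and Cebpa, with log2 fold changes of -0.23, -0.40 and -0.40 (edgeR adjusted p = 0.233, 0.0999 and 0.0913). The called genes are named after their values were seen. Nr1i3, which encodes CAR, stood at 151, 143 and 198 CPM against 151, 80.9 and 126 CPM and rose by 0.74 (edgeR adjusted p = 0.0248). Cebpb fell by 0.86 (edgeR adjusted p = 0.0126) and Ppargc1a, a coactivator, fell by 1.63 (edgeR adjusted p = 0.0347). Cux2, a repressor known for sex-dependent expression in mouse liver, stood at 33, 0 and 6.12 CPM against 33, 0 and 35 CPM. It had 0 reads in both libraries of pair 2, which allows up to 3 reads each, so its call rests on pair 3 (log2 fold change -2.51, edgeR adjusted p = 0.00887).

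Of 14 genes of bile acid synthesis, the pathway in which Cyp2c70 acts, edgeR called 1 higher and 2 lower in pairs 2 and 3, with a median of 0.06, beside 3.43% and 4.01% of all genes. Scp2, Slc27a5 and Hsd3b7, the most abundant, did not pass. Cyp7a1, the rate-limiting enzyme, stood at 102, 432 and 457 CPM against 99.6, 177 and 210 CPM and rose by 1.21 (edgeR adjusted p = 0.0085). Cyp8b1, which makes the cholic acid branch, fell by 0.73 (edgeR adjusted p = 0.0314), and Cyp39a1, an oxysterol hydroxylase, also fell (39.9, 3.66 and 21.8 CPM against 39.4, 15 and 44.8 CPM; edgeR adjusted p = 0.0315); these 3 are named after their values were seen. In the fit of 6 libraries no gene of these 4 lists passed edgeR's test.

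The zone of the liver lobule moved with the same pairs. Of 10 markers of hepatocytes around the central vein, edgeR called 10 higher in pairs 2 and 3, with a median log2 fold change of 2.37. Axin2 is among these 10, and pair 1 was left out partly for its Axin2 values, so the call of Axin2 is not independent of that choice. Pair 1 was also left out for the small spread of its differences over all genes. The calls of other genes, zone markers and members included, are thus not independent of that choice either. Of 10 markers of hepatocytes around the portal vein, edgeR called 10 lower, with a median of -3.11. Among all genes, that fit called 3.43% higher and 4.01% lower. In pair 1 the medians were -0.05 and -0.01. Cyp2e1, a P450 of the central zone, stood at 1697, 11162 and 11166 CPM against 1692, 2923 and 4033 CPM. Glul, glutamine synthetase of the innermost central hepatocytes, stood at 88, 339 and 1050 CPM against 87.9, 46.9 and 119 CPM. Cyp2f2, a P450 of the portal zone, stood at 1624, 6.17 and 18.8 CPM against 1653, 2159 and 1233 CPM. Cyp2e1 was 3.82-fold and 2.77-fold higher in pairs 2 and 3, near the folds of Cyp2c54, whereas Cyp2c44 and Cyp2c70 stood near 1 in the same libraries; whether members differ from these markers was not tested.

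Markers of other liver cells were scarce. Summed Kupffer cell markers stood at 1.14 to 4.14 CPM in the libraries labelled positive and 3.35 to 22.1 CPM in the others. In pairs 2 and 3, where edgeR called 4.01% of all genes lower and 3.43% higher, it called 4 of 5 of these markers lower. Bile duct markers summed to 0.186 to 11.2 CPM against 2.75 to 11.7 CPM, with 2 of 2 tested genes called lower. Endothelial markers summed to 1.36 to 44.1 CPM against 4.34 to 61.2 CPM, with 0 of 8 called. Stellate cell markers summed to 0.203 to 5.53 CPM against 0.933 to 5.81 CPM, with 0 of 4 called. No counted marker was at 0 reads in all libraries. Of 8 listed Kupffer cell markers 7 were counted, as were 7 of 8 bile duct markers. Each of these sums lay below the level of Cyp2c37 in the same library, but Cyp2c38 at 1.65 CPM and Cyp2c40 at 2.63 CPM in the library labelled negative 2 lay below its Kupffer and endothelial sums of 4.38 and 4.34 CPM. Cyp2c39 lay below at least 1 of the sums in every library except positive 2 and 3, and Cyp2c55 in every library except positive 2 and negative 2. The part of these cells in the members' values was not tested.

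In the authors' deposited table of group comparisons, which gives 1 FPKM value per transcript and group, 97 of 13843 tested transcripts were marked significant. Those with the Axin2-positive value higher were 73 in the authors' deposited table, or 0.527% of the transcripts tested. Of 13 tested transcripts of the members, 4 were so marked in the authors' deposited table, all with the Axin2-positive value higher. They were Cyp2c38 (62.9 against 16.9 FPKM, q = 0.00961), Cyp2c39 (11.7 against 3.08 FPKM, q = 0.00961), Cyp2c55 (18.3 against 2.24 FPKM, q = 0.00961) and Cyp2c37 (232 against 96.7 FPKM, q = 0.0499), all from the authors' deposited table. Cyp2c54 had 352 against 154 FPKM there, with q = 0.152 in the authors' deposited table. In that table of the authors, deposited without values per library, Cyp2c29 had 1081 against 569 FPKM and Cyp2c70 427 against 386 FPKM, neither marked significant. Cyp2c38 was marked in the authors' deposited table but not called in either edgeR fit, and Cyp2c50 and Cyp2c54 were called by edgeR in pairs 2 and 3 but not marked there.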

How the data were processed

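The authors deposited a table of raw counts per gene and library. The submitters' processing notes name TopHat2 2.0.11 and mm10. For each transcript the authors deposited 1 FPKM value per group and a p-value and q-value of the comparison; Cuffdiff 2.2.2 is named for these in the same notes. Which program, annotation and strand setting gave the counts, and what became of reads that fit several genes, is not given in the sources used here.

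The test was edgeR's quasi-likelihood F test (edgeR 4.0.16, R 4.3.3) on group, after filterByExpr and TMM scaling, Benjamini-Hochberg adjusted over 12343 genes with a threshold of 0.05. CPM use TMM-scaled totals, RPKM the length of all exons of a gene in the GENCODE annotation of GRCm38 or, as an added alternative, of 1 transcript, and log2 differences within a pair an offset of 0.05 CPM. Alternatives were DESeq2 1.42.0, voom in limma 3.58.1, other scalings and filters, the replicate block, left-out libraries and summed near-identical genes. The pairs rest on the shared index and on a check over genes: for same-numbered libraries, deviations from the group means had correlations of 0.68, 0.81 and 0.76, and for different numbers 0.18 at most. The fits were also run on simulated counts. Those had the same relative spread beyond counting noise for every gene, and no differences between pairs other than read number. That run does not show how the fits behave on these libraries.

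The members and gene lists were chosen with earlier results of these data known. Named were all members, other Cyp2c genes, the 3 most abundant genes of each pathway list, zone markers, and the 3 genes most like each of the 3 most abundant members, of which 1 is not reported here. Promoters are from RefSeq (GRCm38.p6). Protein identities come from translated GENCODE transcripts, since no protein table was used here.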

Additional observations from a re-analysis of the deposited data

How the results depend on the processing

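The fit of 6 libraries called no gene and no member with DESeq2 or limma-voom, with another scaling or filter, at a threshold of 0.01, with near-identical genes summed, or with the replicate block alone. Leaving out 1 library gave 0 to 6 genes (6 without the library labelled Axin2-positive 1) and 0 members. With the replicate block and without both libraries of replicate 1, 922 genes and 5 members were called, and against a fold of 1.5, 208 genes and 3 members; without both of replicate 2 or of replicate 3, none. Cyp2c37, Cyp2c50 and Cyp2c54 passed both of these fits, Cyp2c39 and Cyp2c55 the first. The cause was not tested beyond the libraries left out.

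The sign turned for members near 0 or carried by 1 library. The log2 fold change of Cyp2c40 became 0.39 in limma-voom, 0.37 with the replicate block, 0.53 without Axin2-positive 2, 0.54 without Axin2-negative 1, 0.22 without Axin2-negative 3, 0.62 in pairs 2 and 3 (also against a fold of 1.5) and 0.54 in pairs 1 and 2. Cyp2c29 became -0.05 without Axin2-positive 2. Cyp2c70 became -0.01 without Axin2-positive 1 and -0.05 without Axin2-negative 2, and Cyp2c44 0.07 without Axin2-negative 3 and 0.12 in pairs 1 and 2. Leaving out 1 library, the value ranged from -0.05 to 1.60 for Cyp2c29, -0.63 to 0.54 for Cyp2c40, -0.15 to 0.07 for Cyp2c44, -0.05 to 0.09 for Cyp2c70, 0.33 to 1.33 for Cyp2c37, 0.96 to 2.14 for Cyp2c38, 0.49 to 2.05 for Cyp2c39, 0.78 to 1.42 for Cyp2c50, 0.97 to 1.53 for Cyp2c54 and 0.86 to 4.16 for Cyp2c55. Depth limits the pair 2 values of Cyp2c39, with 22 reads in 1 library.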
